A study of Mus musculus with 6 samples.

Results

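The cell division programme of the mouse ovary was examined through 58 genes named for DNA replication (S phase), mitosis (M phase) and the control of entry into the cycle. They are a list of gene symbols, with no threshold on their values, and all 58 were found among the 18280 genes of the deposited table. Whole-ovary libraries numbered 3 for the Dennd1a-transgenic genotype (Dennd1aTG in the labels, TG below) and 3 for the wild type (WT). Ovaries of both genotypes were collected 44 h after an injection of PMSG (pregnant mare serum gonadotropin), which acts like follicle-stimulating hormone (FSH). The labels give the groups no further allele or agent, and they name neither the mouse strain, the age nor the promoter of the transgene. The comparison of TG with WT asks whether the transgene alters the ovarian transcriptome while follicles grow under FSH drive.

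In a growing follicle most dividing cells are granulosa cells. FSH induces cyclin D2 in them, cyclin D bound to Cdk4 or Cdk6 inactivates the retinoblastoma protein, and the released E2F factors switch on the replication genes. Genes of G2 and M phase are switched on later in the cycle through a promoter element called the CHR (cell cycle genes homology region), often with CCAAT boxes nearby. The Cdk inhibitor p27, encoded by Cdkn1b, accumulates when granulosa cells leave the cycle and become luteal cells.

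Estimated counts summed to between 17075484 and 18516171 per library, and the least counted of the 58 genes still had 98 counts in its poorest library. Dennd1a gave 570, 582 and 587 CPM, the count scaled to a common library size, in the 3 TG libraries and 44.6, 39.5 and 49.3 CPM in the 3 WT libraries, so each library carried the transcript level its label calls for. The granulosa markers Fshr, Cyp19a1, Inha and Foxl2 and the oocyte markers Zp3 and Gdf9 were present in every library. Some libraries stood apart in markers of tissue around the ovary. TG replicate 2 had 86.8 CPM of the adipocyte gene Cfd, against 9.45 or less elsewhere. WT replicate 3 had 126 CPM of the muscle gene Des and 40.9 CPM of the oviduct gene Ovgp1. The other oviduct markers were mixed. Pax8 was highest in WT replicate 3 (0.704 CPM) and Foxj1 in TG replicate 2 (0.459 CPM). Epcam was highest in WT replicate 1 (13.6 CPM, against 5.87 CPM in WT replicate 3). The labels do not say how many animals or ovaries went into each library, so p-values measure the spread between these 6 samples.

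The promoters are shown because S-phase and M-phase genes differ in them, and because many of the genes varied together between libraries, as described further on. RefSeq (GRCm38.p6, the assembly to which mm10 corresponds) supplied 57 promoters of 48 of the 58 genes. Aurkb, Ccna2, Ccnd1, Ccnd2, Ccne2, Cdkn1c, Gins1, Gins2, Mcm4 and Tpx2 had no entry. The 250 bases before each gene start were searched on both strands for E2F sites (TTTCGCGC, TTTGGCGC, TTTCCCGC or TTTGCCGC), for the CHR (in its canonical form TTTGAA, or in the related forms TTCGAA, and also TTTAAA, and also CTTGAA) and for the box CCAAT. An E2F match lay in 5 of 24 promoters of S-phase genes (20.8%), in 1 of 20 promoters of M-phase genes (5.0%) and in 1.86% of all 32851 promoters. A CHR match lay in 15 of the 20 M-phase promoters (75.0%), in 7 of the 24 S-phase promoters (29.2%) and in 33.95% of all promoters. Both a CHR match and a CCAAT box were held by 14 of 20 M-phase promoters (70.0%), 4 of 24 S-phase promoters (16.7%) and 11.9% of all. A match is a description of letters, not a binding site.

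Mcm6, a subunit of the replicative helicase, had the most E2F matches among the 48 genes with a promoter entry. Its 150 bases before the start (chr1:128359706-128359855, minus strand) follow, with the E2F matches in capitals. The longer run of capitals holds 2 overlapping matches, 1 on each strand, and all 3 matches lie between 110 and 40 bases before the start.
Mcm6: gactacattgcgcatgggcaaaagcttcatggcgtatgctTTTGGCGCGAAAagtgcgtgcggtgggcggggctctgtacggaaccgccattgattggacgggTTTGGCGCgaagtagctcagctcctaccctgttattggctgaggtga
In these 48 genes the shortest distance between a CHR match and a CCAAT box was 4 bases, and it was shared by Cdc20, Cdk1 and Top2a. These are printed with both elements in capitals, the CCAAT box reading ATTGG and the CHR TTCAAA where the match is on the other strand: Cdc20 at chr4:118437344-118437493, Cdk1 at chr10:69352913-69353162 and Top2a at chr11:99024190-99024439, all on the minus strand.
Cdc20: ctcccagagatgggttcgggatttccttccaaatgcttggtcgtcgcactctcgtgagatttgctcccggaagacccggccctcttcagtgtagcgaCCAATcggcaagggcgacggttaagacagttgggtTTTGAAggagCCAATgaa
Cdk1: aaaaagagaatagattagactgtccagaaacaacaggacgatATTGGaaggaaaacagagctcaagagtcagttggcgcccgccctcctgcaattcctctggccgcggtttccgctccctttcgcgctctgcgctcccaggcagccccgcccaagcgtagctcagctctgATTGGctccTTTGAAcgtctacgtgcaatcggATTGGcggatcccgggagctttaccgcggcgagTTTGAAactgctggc
Top2a: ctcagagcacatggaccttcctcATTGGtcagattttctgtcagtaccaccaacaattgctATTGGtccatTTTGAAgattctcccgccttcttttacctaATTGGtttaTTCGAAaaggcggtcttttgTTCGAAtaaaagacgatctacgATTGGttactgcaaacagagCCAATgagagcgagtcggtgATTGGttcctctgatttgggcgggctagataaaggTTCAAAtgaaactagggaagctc
Top2a had 4 CHR matches and 6 CCAAT boxes in its window, Cdk1 had 2 and 3, and Cdc20 had 1 and 2. Cdk1 also had 1 E2F match, left in lower case.

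Levels were compared between genes as FPKM, which is scaled to gene length. Cdk4, the kinase partner of D-type cyclins, was the most abundant of the 58 genes in every library, at 266 to 305 FPKM. Pcna, the sliding clamp of DNA polymerase, followed at 97.0 to 125 FPKM, then Cdkn1b at 87.5 to 119 FPKM and Ccnd3 at 79.3 to 104 FPKM. The ranges of these last 3 genes overlapped over the 6 libraries, whereas none of them reached the range of Cdk4. Ccnd2, encoding cyclin D2, ranged from 43.2 to 53.4 FPKM, and Ccnd1 from 7.52 to 13.2 FPKM. The order Ccnd3, Ccnd2, Ccnd1 therefore held in every library. Pola1, the catalytic subunit of DNA polymerase alpha, had the lowest mean (3.50 FPKM), followed by Ccne1 (3.79 FPKM), one of the E-type cyclins that activate Cdk2 at the G1/S border. The ranges of Pola1 and Ccne1 overlapped. Of the 58 genes 40 had a mean of at least 10 FPKM, and the median of their means was 16.7 FPKM against 5.61 FPKM for all genes of the table with a value above 0.

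**Figure D1:**
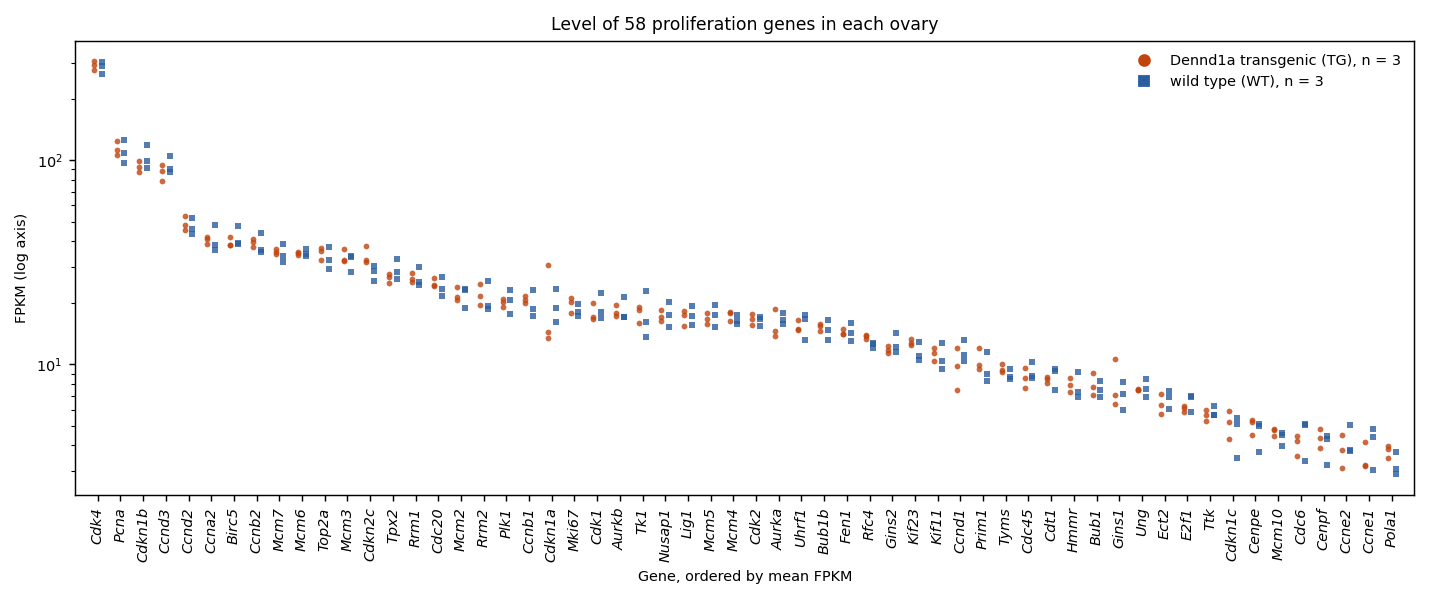
FPKM of each of the 58 genes in every library on a log axis, ordered by mean. TG libraries are circles and WT libraries are squares (n = 3 each). Cdk4 stands above all others, and the circles and squares of a gene mostly intermingle, with Rfc4 and Cdkn2c as genes whose groups do not overlap in normalised CPM.

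Transcript levels of most of the cell division genes were close in TG and WT ovaries. All 58 passed the filter on low counts, and edgeR's quasi-likelihood test called 0 of them, with 0 at an unadjusted p under 0.05. Over all 14124 tested genes 1.05% were called, 1.02% as lower and 0.0354% as higher in TG, and 4.08% reached an unadjusted p under 0.05. By limma-voom and by DESeq2 the count was likewise 0 of the 58, with 0 at an unadjusted p under 0.05 in each. The smallest unadjusted p among the 58 was 0.103, for Cdkn2c, and every adjusted p was 0.9997. Log2 ratios of TG over WT, the fold change on a log2 scale, ran from -0.25 to 0.21, with 30 above 0 and 28 below. Their median was 0.0076, against 0.0019 for all tested genes, of which 50.7% lay above 0. The 95% interval of the fold change stayed within 1.5-fold in both directions for 54 of the 58 genes and within 2-fold for all 58. The 4 exceptions at 1.5-fold were the replication gene Gins1 and the cycle control genes Ccne1, Ccnd1 and Cdkn1a. For these the data do not show closeness at 1.5-fold. In whole-ovary RNA, fewer cells of a type and less RNA per cell cannot be told apart.

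**Figure D2:**
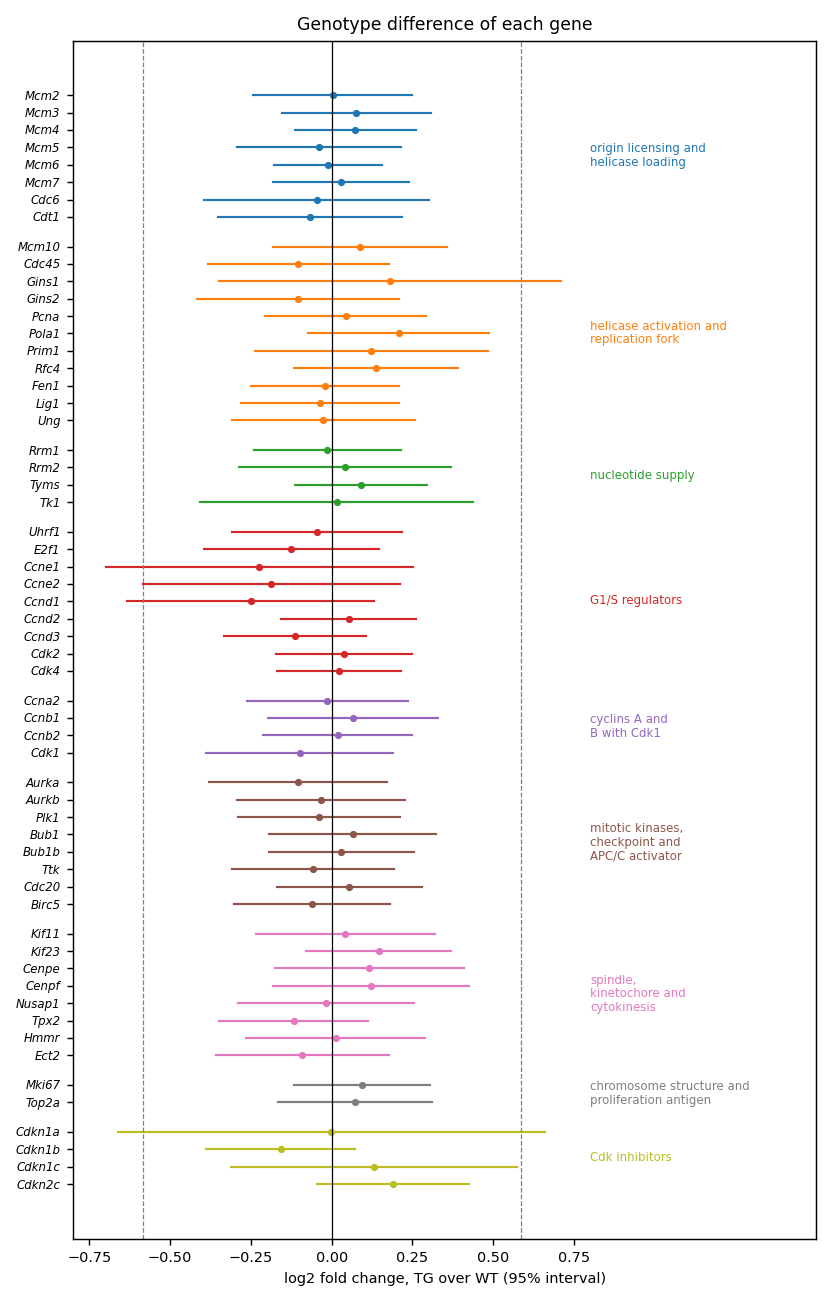
Log2 ratio of TG over WT for each gene (point) with its 95% interval (line), grouped and coloured by role. The dashed lines mark 1.5-fold, which the intervals of 54 of the 58 genes do not reach, and every interval includes 0.

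The TG range lay wholly apart from the WT range for 2 of the 58 genes, Rfc4 and Cdkn2c, both higher in TG. Among all tested genes the ranges were separate for 8.25%, with TG higher for 3.21%. Rfc4, a subunit of the clamp loader, measured 13.6, 14.6 and 14.5 CPM in TG and 12.4, 13.3 and 13.1 CPM in WT, always in the order of replicates 1 to 3. The gap between the groups was small, and the log2 ratio was 0.14 (SE 0.11, unadjusted p = 0.256 in edgeR). Rfc4 overlaps Eif4a2 in the annotation, and the labels do not say whether counting used the strand.

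Origin licensing loads the Mcm2-7 helicase ring onto DNA with the loaders Cdc6 and Cdt1. The 8 genes of this group had log2 ratios from -0.067 to 0.076, 4 above 0 and 4 below. Mcm4, the member with the smallest p, measured 60.8, 61.5 and 55.7 CPM in TG and 55.2, 59.7 and 54.3 CPM in WT, a log2 ratio of 0.07 (SE 0.08). Mcm7, the member with the highest FPKM, measured 78.0, 82.3 and 77.4 CPM in TG and 70.3, 86.6 and 75.7 CPM in WT. The highest and the lowest of these 6 values of Mcm7 both came from WT ovaries. Mcm6, whose promoter is printed above, was the steadiest of the 58 genes, with its highest library only 1.09 times its lowest. It measured 98.4, 102 and 97.7 CPM in TG and 95.9, 105 and 99.4 CPM in WT, with a 95% interval of the log2 ratio from -0.18 to 0.16.

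The 11 genes of helicase activation and the replication fork ran from -0.10 to 0.21 in log2 ratio. Pcna measured 114, 137 and 121 CPM in TG and 118, 137 and 106 CPM in WT, which overlapped fully, at a log2 ratio of 0.04 (SE 0.11). Pola1 had the largest positive value of the 58 genes. It measured 20.1, 18.3 and 19.6 CPM in TG and 15.8, 19.3 and 15.1 CPM in WT, a log2 ratio of 0.21 (SE 0.12, 95% interval -0.07 to 0.49, unadjusted p = 0.128). WT replicate 2 lay within the TG range, and without that library the value of Pola1 was 0.32 (adjusted p = 0.805 in edgeR), against 0.14 without WT replicate 3. Gins1, a subunit of the GINS complex that completes the active helicase, had the widest interval of this group, from -0.35 to 0.71. It measured 9.87 CPM in TG replicate 2 and between 5.33 and 7.57 CPM in the others.

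Nucleotide supply was represented by both ribonucleotide reductase subunits, thymidylate synthase and thymidine kinase. Rrm1, the large reductase subunit, measured 98.4, 108 and 96.9 CPM in TG and 96.5, 116 and 93.6 CPM in WT. Tyms, which makes dTMP, measured 33.6, 36.7 and 32.9 CPM in TG and 30.6, 34.6 and 31.7 CPM in WT, a log2 ratio of 0.09 (SE 0.09). In both genes the second replicate of each genotype was the highest of its group. Tk1, the salvage kinase, varied most in this group, from 16.3 CPM in WT replicate 1 to 27.8 CPM in WT replicate 2, and its TG values of 18.7 to 23.3 CPM lay between these.

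Among regulators of the G1/S transition the D-type cyclins are the link from FSH to the cycle. Ccnd2 (Entrez gene 12444, chromosome 6, 127125162 to 127152188) measured 305, 270 and 278 CPM in TG and 302, 253 and 267 CPM in WT. The means were 284 ± 18.4 and 274 ± 25.4 CPM (SD, n = 3 per genotype), which gave a log2 ratio of 0.05 (SE 0.09, 95% interval -0.16 to 0.26). The first replicate of each genotype was the highest of its group, and the groups overlapped. Ccnd1 (chromosome 7, 144929931 to 144939831) measured 26.8, 44.0 and 35.6 CPM in TG and 37.4, 48.3 and 40.7 CPM in WT. Its log2 ratio of -0.25 (SE 0.17, 95% interval -0.63 to 0.13) was the most negative of the 58 genes, and TG replicate 1 was the lowest library. With 1 library left out the value of Ccnd1 ran from -0.44 (without TG replicate 2) to -0.08 (without TG replicate 1), and it was -0.14 without WT replicate 2. Without TG replicate 2 its unadjusted p was 0.0211 and its adjusted p 0.708 in edgeR. Without TG replicate 2 and WT replicate 3 together these were 0.0348 and 0.696 in edgeR (log2 ratio -0.46). Ccnd3 (chromosome 17, 47505051 to 47599689) measured 138, 150 and 164 CPM in TG and 150, 158 and 179 CPM in WT, a log2 ratio of -0.11 (SE 0.10). Counts of Ccnd1, Ccnd3, Ccne2, Ccna2 and Tyms were not whole numbers in any library, as when reads are divided among similar sequences, so their levels are less certain than those of Ccnd2.

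Cdk4 measured 337, 361 and 321 CPM in TG and 335, 313 and 354 CPM in WT, a log2 ratio of 0.02 (SE 0.08). Cdk2, the kinase partner of the E-type cyclins, had 0.04 (SE 0.09). E2f1 is an activating E2F factor, and Uhrf1 maintains DNA methylation at the fork. Of the 9 G1/S regulators 6 had log2 ratios below 0: Ccnd1, Ccnd3, Ccne1, Ccne2, E2f1 and Uhrf1. Ccne1 at -0.22 (SE 0.21) and Ccne2 at -0.19 (SE 0.18) had the largest errors among them, at 5.39 to 8.63 and 8.04 to 13.1 CPM.

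**Figure D3:**
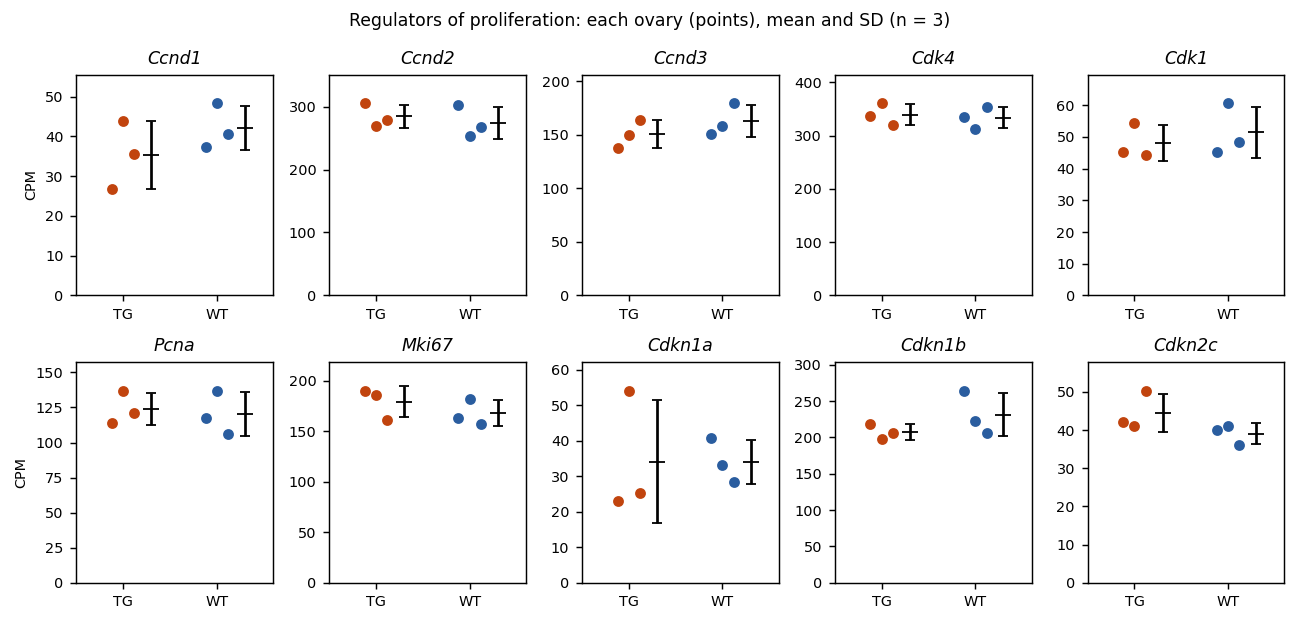
CPM of 10 regulators and proliferation genes in each TG and WT library (points). The mean and SD of each genotype (n = 3) stand beside them, and axes start at 0. The groups overlap in all panels except Cdkn2c, and TG replicate 2 stands far above the other TG libraries for Cdkn1a.

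Cdk1, which drives entry into mitosis with cyclins A2, B1 and B2, measured 45.3, 54.5 and 44.4 CPM in TG and 45.2, 60.6 and 48.5 CPM in WT. Its log2 ratio was -0.10 (SE 0.13, 95% interval -0.39 to 0.19). Ccna2 measured 110, 110 and 102 CPM in TG and 101, 127 and 96.5 CPM in WT, and its means of 107 ± 4.68 and 108 ± 16.7 CPM (SD, n = 3 each) differed by less than the spread in WT. Ccnb1 and Ccnb2, the B-type cyclins, had log2 ratios of 0.07 (SE 0.12) and 0.02 (SE 0.10). All 4 genes of this group had their highest value in WT replicate 2.

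The mitotic kinases, the spindle checkpoint and its target Cdc20, the activator of the anaphase-promoting complex, ranged from -0.10 to 0.06. Aurka, the spindle pole kinase, measured 31.6, 25.5 and 23.7 CPM in TG and 27.0, 31.0 and 28.8 CPM in WT, so that the highest and the lowest library were both TG. Birc5 (survivin), which places Aurkb on the chromosomes, measured 31.4, 36.1 and 33.1 CPM in TG and 31.7, 39.6 and 33.7 CPM in WT. Cdc20 measured 42.0, 39.7 and 38.7 CPM in TG and 37.4, 43.4 and 35.2 CPM in WT, a log2 ratio of 0.05 (SE 0.10). Plk1, Bub1, Bub1b, Ttk and Aurkb lay between -0.058 and 0.065.

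The 8 genes of the spindle, kinetochore and cytokinesis ran from -0.12 to 0.15. Kif23, a motor of the central spindle, measured 40.9, 39.1 and 39.6 CPM in TG and 34.4, 40.8 and 32.9 CPM in WT. WT replicate 2 was as high as the TG libraries for Kif23, and the log2 ratio was 0.15 (SE 0.10, unadjusted p = 0.179), or 0.25 without that library (adjusted p = 0.825) and 0.08 without WT replicate 3. Tpx2, which activates Aurka on the spindle, measured 86.4, 85.5 and 79.2 CPM in TG and 80.5, 103 and 88.7 CPM in WT, a log2 ratio of -0.12 (SE 0.10). The kinetochore genes Cenpe and Cenpf had 0.12 each (SE 0.13), with WT replicate 3 the lowest library for both. Mki67, the Ki-67 antigen found in cycling cells, measured 190, 186 and 162 CPM in TG and 164, 182 and 158 CPM in WT, a log2 ratio of 0.09 (SE 0.09, 95% interval -0.12 to 0.31). Top2a, which untangles chromosomes before they part, measured 183, 183 and 162 CPM in TG and 163, 191 and 148 CPM in WT.

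The 4 Cdk inhibitors had the largest median SE of the functional groups, at 0.15. Cdkn1b (Entrez gene 12576, chromosome 6, 134920401 to 134925525) measured 219, 198 and 206 CPM in TG and 264, 223 and 206 CPM in WT, a log2 ratio of -0.16 (SE 0.10, 95% interval -0.39 to 0.07). The groups overlapped between 206 and 219 CPM, and WT replicate 1 was the highest library. With 1 library left out the log2 ratio of Cdkn1b ran from -0.23 (without WT replicate 3, unadjusted p = 0.0444, adjusted p = 0.934 in edgeR) to -0.05 (without WT replicate 1). Cdkn2c (p18), an inhibitor of Cdk4 and Cdk6, measured 42.1, 41.1 and 50.3 CPM in TG and 40.0, 41.1 and 36.0 CPM in WT. The gap between its groups was far smaller than the spread within either, and the log2 ratio was 0.19 (SE 0.10, 95% interval -0.05 to 0.42). Cdkn1c (p57) had 0.13 (SE 0.20) at 6.18 to 10.2 CPM.

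Cdkn1a (p21, chromosome 17, 29090979 to 29100722), an inhibitor induced by p53 and by stress, measured 23.1, 54.1 and 25.1 CPM in TG and 40.7, 33.1 and 28.4 CPM in WT. TG replicate 2 was the highest and TG replicate 1 the lowest of all 6 libraries. Its mean was 34.1 ± 17.3 CPM for TG and 34.1 ± 6.18 CPM for WT (SD, n = 3 per genotype), a log2 ratio of -0.00043 (SE 0.29). Without TG replicate 2, both remaining TG values lay below all WT values, and the log2 ratio was -0.50 (unadjusted p = 0.0111, adjusted p = 0.508 in edgeR). Leaving out 1 of the other libraries at a time gave Cdkn1a values from -0.11 to 0.22. TG replicate 2 is the library with high adipocyte markers, at 171 CPM summed over 5 markers against 15.4 to 33.9 CPM elsewhere. Of these markers Plin1 differed little, at 20.8 CPM there and 10.9 to 19.2 CPM in the others. The same library was lowest for all 6 endothelial markers and had the lowest median of the surface epithelium markers. Whether these differences have a part in the Cdkn1a level of TG replicate 2 was not tested.

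Many of the 58 genes were highest, or lowest, in the same library. WT replicate 2 had the highest value for 31 of the 58 genes (53.4%), while it was highest for 17.69% of all tested genes. WT replicate 3 was lowest for 22 of the 58 genes (37.93%) and WT replicate 1 for 18 (31.03%). Over all tested genes WT replicate 3 was lowest for 21.74% and WT replicate 1 for 13.73%. The 2 phases differed in which library was lowest. Of 23 S-phase genes (licensing, fork and nucleotide supply) 13 were lowest in WT replicate 1, among them 7 of the 8 licensing genes. Of 22 M-phase genes 14 were lowest in WT replicate 3 and 16 were highest in WT replicate 2. These libraries were singled out after their values were seen, and genes of a library share its cells and its scaling, so the counts are a description.

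**Figure D4:**
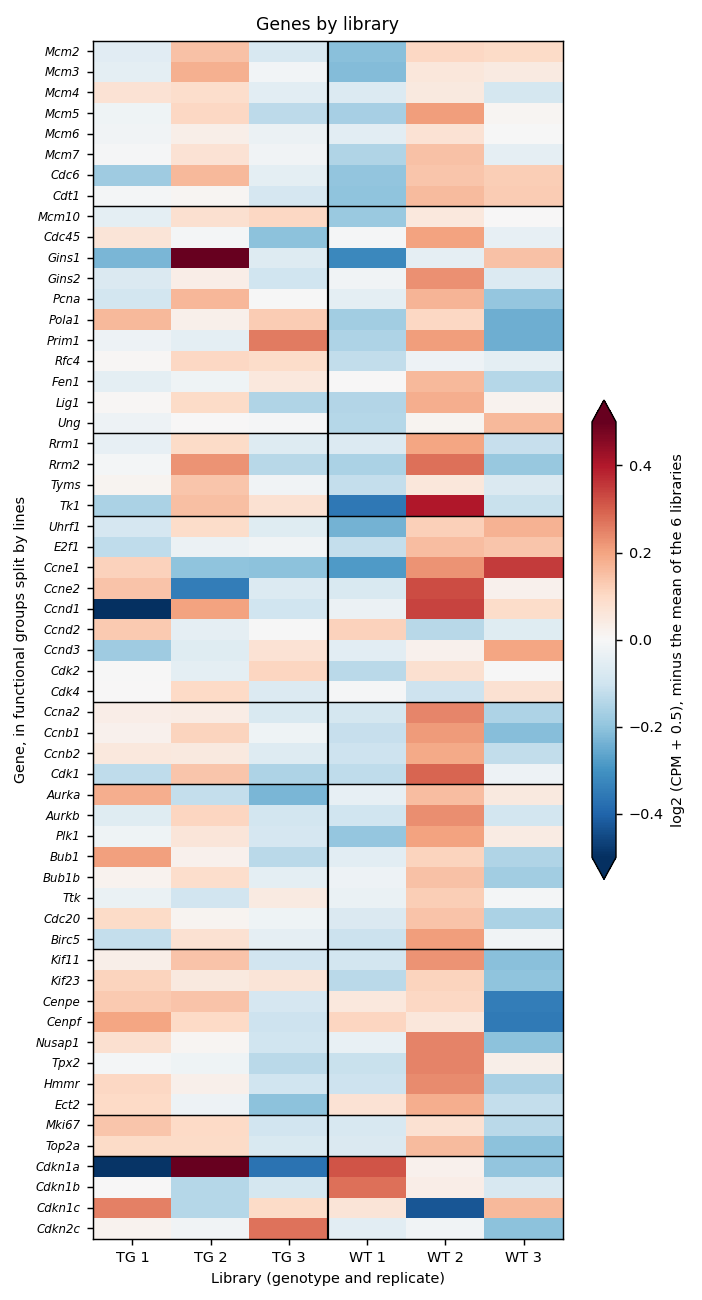
Log2 (CPM + 0.5) of each gene in each library minus the mean of the 6 libraries, from blue (below) to red (above), with lines between functional groups and between genotypes. The WT replicate 2 column is mostly red through the S-phase and M-phase groups, WT replicate 1 is blue for most licensing genes, and WT replicate 3 is blue for most spindle genes.

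Summed over S-phase genes, CPM was 961, 1058 and 956 in TG replicates 1 to 3 and 900, 1082 and 947 in WT replicates 1 to 3. For M-phase genes it was 1288, 1288 and 1159 in TG and 1169, 1390 and 1117 in WT. In both sums WT replicate 2 was the highest library, a WT library was the lowest, and the TG values lay between. The ratio of the M-phase to the S-phase sum ranged from 1.18 in WT replicate 3 to 1.34 in TG replicate 1. The SD between replicates, as a share of the mean, had a median of 6.94% in TG and 12.3% in WT over the 58 genes. It was larger in WT for 46 of the 58 (79.3%), against 57.8% of all tested genes. Without WT replicate 2, the log2 ratio was above 0 for 41 of the 58 genes and its median was 0.09, still with 0 called and with 2, Pola1 and Kif23, at an unadjusted p under 0.05 in edgeR. Leaving out 1 of the other libraries at a time put 21 to 35 of the 58 above 0.

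Markers of other ovarian cells also differed between these libraries. All 12 tested oocyte markers of 14 had their lowest value in WT replicate 2 or WT replicate 1, with WT replicate 2 lowest for 11, and 11 were highest in WT replicate 3. Their summed level was 162 CPM in WT replicate 2, 323 CPM in WT replicate 3 and 210 to 260 CPM in the others. All 6 smooth muscle markers were highest in WT replicate 3. Granulosa markers summed to 8504 to 9460 CPM in TG and 8182 to 9317 CPM in WT, and WT replicate 2, at 8824 CPM, was in the middle of that range. Luteal markers summed to 7120 CPM in WT replicate 2 and to 4655 to 6184 CPM in the others. Of the 5 luteal markers 4 were highest in WT replicate 2, with Scarb1 at 4227 CPM. The other, Akr1c18, had 22.3 CPM there and 137 CPM in TG replicate 2. Endothelial markers summed to 743 CPM in WT replicate 2 and to 450 to 623 CPM in the others. Stromal markers had their lowest sum in WT replicate 2, at 2717 CPM against 2984 to 3804 CPM in the others. Myeloid markers, which include cells that can divide, summed to 245 to 258 CPM in TG and 291 to 482 CPM in WT, erythroid markers to 194 to 216 CPM in TG and 119 to 134 CPM in WT, and lymphocyte markers to 4.53 to 7.43 CPM over all libraries. The part of these differences in the levels of the proliferation genes was not tested.

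**Figure D5:**
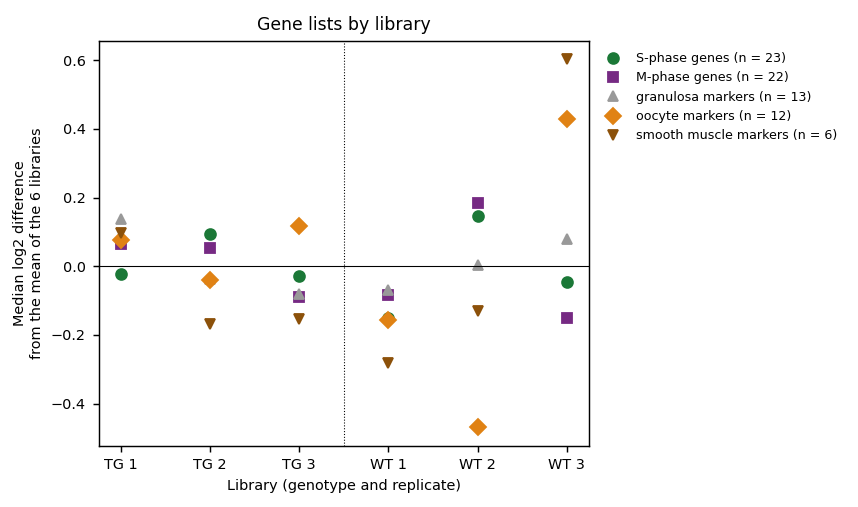
Median over the genes of a list of the log2 difference from the mean of the 6 libraries, by library, for S-phase genes, M-phase genes and markers of granulosa cells, oocytes and smooth muscle. S-phase and M-phase medians are highest in WT replicate 2 (0.15 and 0.18), where the oocyte median is lowest (-0.47).

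A further 103 cell cycle genes that are not among the 58 were listed as 30 of S phase, 45 of G2 and M phase and 28 of G1/S control. Of the 102 tested, edgeR, DESeq2 and limma-voom called 0 in either direction, and edgeR gave 0 an unadjusted p under 0.05. Their median log2 ratio was 0.0026. In S phase, Rfc3, a clamp loader subunit, had -0.16 (SE 0.10) and Slbp, which binds histone mRNA, 0.11 (SE 0.08). Both had groups without overlap, as the only 2 of the 102. In G2 and M phase, Pttg1 (securin), which holds back separase, had -0.19 (SE 0.10), and the condensin subunit Smc4 had 0.11 (SE 0.09). Lin37 and Lin9, subunits of the complexes that act through the CHR, had -0.15 (SE 0.13) and 0.16 (SE 0.14). WT replicate 2 was the highest library for 53 of the 102. The inhibitor Cdkn2b, named after its values were seen, resembled Cdkn1a in its extreme library: it measured 31.7 CPM in TG replicate 2 and between 6.53 and 14.3 CPM in the others.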

How the data were processed

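Per the labels' protocols, ovarian total RNA was made into libraries and read on the BGISEQ-500 platform. RSEM 1.3.1, Bowtie2, DESeq2 1.4.5 and, as build, mm10 stand in the submitters' processing notes with no role attached; annotation and strandedness are not given in the sources used here. The authors deposited estimated counts per gene, per the file headers, which were rounded here. A second deposited set was identified as FPKM from its values. The gene lengths it implies in a library had a median of 99.8% to 100.13% of their mean over the libraries. Another length-scaled unit could also give values near these, so they do not by themselves single out FPKM.

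Samples were grouped by title. Counts were tested with edgeR 4.0.16 in R 4.3.3 (TMM factors 0.990 to 1.015, quasi-likelihood, two-sided, genes kept by filterByExpr at a count of 10 and a summed count of 15, Benjamini-Hochberg over 14124 genes, threshold 0.05). CPM uses effective library sizes. Intervals are 95% and use the model's degrees of freedom. The script was tested on simulated counts. The 58 genes and all lists were chosen with earlier results of these data known. Values by library are given, in each functional group, for the gene with the smallest p and that with the highest FPKM, and for Ccnd1, Ccnd2, Ccnd3, Mki67, Pcna, Cdk1 and Cdkn1b; Mcm6, Rfc4, Gins1, Tk1, Cdc20 and Cdkn1a were added after their values were seen. From the other cell cycle lists, the gene with the smallest p in each direction is named. Of the 58 genes 18 overlap another gene of the table in the RefSeq annotation, and reads of such pairs may not be separable. Alternatives were other size factors (RLE, upper-quartile, none), a filter at 50 counts in 3 samples or none, a block for the replicate number, DESeq2 1.42.0, limma-voom 3.58.1, limma-trend on log2(FPKM + 1), a minimum absolute log2 fold change of 1 and leaving out each library.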

Additional observations from a re-analysis of the deposited data

How the results depend on the processing

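The count of 0 called among the 58 genes, and of 0 among the other cell cycle genes, held in all 16 refits. These include leaving out TG replicate 2 and WT replicate 3 together, which was chosen after seeing the data. A minimum absolute log2 fold change of 1 only selects from the main calls, so for these lists it could give nothing but 0. The count over all genes was 149 and ranged from 119 to 202 over all 17 alternatives. It was 202 in DESeq2 and 122 to 178 when 1 library was left out. The labels name no batch, and the main fit did not pair libraries by replicate number. The deviations of same-numbered libraries correlated at 0.28, 0.10 and 0.09 for numbers 1 to 3, and each library correlated best with its own number. With the replicate number as a block, 159 genes and 0 of the 58 were called, and 1 of the 58, Ccnd1, had an unadjusted p under 0.05 (log2 fold change -0.27, adjusted p = 0.619). The small medians changed sign with the libraries used: for S-phase genes the median log2 fold change was 0.016 and ran from -0.040 to 0.12 with 1 library left out, and for M-phase genes it was 0.015 and ran from -0.045 to 0.12. Without these 2 libraries (TG replicate 2, WT replicate 3), 17 of the 58 genes lay above 0 instead of 30, and Cdkn1a had the lowest adjusted p of any of the 58 in any alternative (0.174, log2 fold change -0.62). Cdkn2c reached an unadjusted p under 0.05 in limma-trend on FPKM (log2 fold change 0.26, adjusted p = 0.981). The cause was not tested. Of the 58 genes 21 kept the sign of their log2 fold change in all 16 refits. With 3 libraries a group, the 95% intervals of Gins1, Ccne1, Ccnd1 and Cdkn1a reached past 1.5-fold.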
